A study of Mus musculus with 4 samples.

Results

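The comparison set AppSAA mice given the TREM2 antibody 4D9 with a transport vehicle (ATV:4D9) against AppSAA mice given 4D9 without one, and asked what the vehicle changed in the RNA of brain microglia 1 day after dosing. Its members were taken from the treatment group that the deposited cell annotation gives, and all cells of a mouse were summed into 1 profile. There were 4 mice in each group, 8 of the 20 mice of the series, with 30087 of 74758 cells. Of these cells, 13629 came from mice given 4D9 and 16458 from mice given ATV:4D9.

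All 8 mice were male, carried the AppSAA alleles and the humanized transferrin receptor knock-in on both chromosomes according to the labels, and received a single dose of 10 mg/kg. An age of 8 months is given for such mice in the study's reporting summary. AppSAA is a knock-in of amyloid precursor protein mutations linked to familial Alzheimer's disease, so both groups share amyloid pathology, and no mouse without it enters the comparison. The receptor knock-in (TfRmu/hu) puts the human apical domain into mouse transferrin receptor, which lets the engineered Fc domain of the ATV format bind it at the blood-brain barrier. As labelled, the Fc formats also differ, since ATV:4D9 is listed on a human IgG1 with LALA and the 4D9 antibody on one with LALAPG. The vehicle and the Fc format cannot be told apart here, nor can the amount of antibody that reached the brain and its action there. AppSAA mice given ATV:ISO, the vehicle on an isotype control, served as background in 4 further mice; their label, ATV-DNP02, was read as ATV:ISO. Sorted cells of 1 mouse from each of the 5 groups were tagged and loaded together, so that each of 4 pools holds a pair of the mice compared. The descriptions of the sort (CD11b+ live cells, or CD45 and CD11b) and of the tissue (cortex, with or without hippocampus) differ between the texts.

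TREM2 is a lipid-sensing receptor of microglia that signals through the adaptor Tyrobp (DAP12) and the kinase Syk. It is known for its role in the change of microglia near amyloid plaques from a homeostatic state, marked by P2ry12 and Tmem119, to a disease-associated state (DAM), marked by Apoe, Cst7, Spp1 and lipid and lysosomal genes. The antibody 4D9 binds the stalk of mouse TREM2 outside the membrane and can cross-link the receptor.

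Depth per cell differed between the groups before any gene was considered. A UMI is 1 counted RNA molecule. The median number of UMIs per cell in pools 1 to 4 was 8293, 9023, 10097 and 11552 under 4D9 and 16475, 13560, 15837 and 16219 under ATV:4D9. Every ATV:4D9 mouse stood above every 4D9 mouse, and the means of 9741 ± 1417 and 15523 ± 1335 (SD, n = 4 mice in each group) differed 1.59-fold (p = 0.0286 in an exact 2-sided permutation of the mice, the smallest that 4 against 4 mice allow, and 0.0371 when adjusted over 13 measures). The median number of detected genes per cell rose with it, from 3030.4 ± 268 to 3857 ± 186 (exact permutation p = 0.0286, adjusted p = 0.0371). The mice given ATV:ISO had 9338 ± 673 UMIs per cell, close to 4D9. The number of cells per mouse (p = 0.40) and the median mitochondrial percentage (1.5 ± 0.352 and 1.59 ± 0.456, p = 0.771) did not pass the same exact test. Summed profiles held 27526806 to 50450918 UMIs under 4D9 and 41315872 to 102446549 under ATV:4D9.

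Gene levels are given as CPM, the UMIs of a gene scaled to the same UMI total in every mouse, so they are shares of RNA and not amounts per cell. Fold changes are ATV:4D9 over 4D9 on the log2 scale, with the standard error of the fit, and a gene is called when its adjusted p is below 0.05 (edgeR quasi-likelihood test with the pool as a block). On the scale of UMIs per cell, the log2 fold change of the median gene lay 0.46 higher, because the cells of ATV:4D9 mice held more UMIs. A sum over all cells mixes the level in a cell with how many cells of each kind there were; values by cluster follow those over all cells.

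The summed profiles were those of microglia. Microglial markers together (P2ry12, Tmem119, Cx3cr1, Csf1r and Fcrls) held 8589.9 to 9197 CPM under 4D9 and 5789.9 to 7415 under ATV:4D9. Markers of other cell types stayed between 0.0727 and 61.7 CPM per list under 4D9 and between 0.0858 and 55.4 under ATV:4D9. The endothelial list read 39.0 to 49.4 CPM under 4D9 and 13.2 to 26.2 CPM under ATV:4D9. Nearly all of it was Flt1 (means of 35.8 and 14.2 CPM) and Pecam1 (8.34 and 5.19 CPM), both called lower. Cldn5 (0.20 and 0.16 CPM) and Ly6c1 (0.12 and 0.14 CPM) lay near 0 in both groups. The oligodendrocyte list read 52.1 to 61.7 and 33.2 to 55.4 CPM (Mbp lower). Of the monocyte markers, Plac8 was higher while Ly6c2 and Ccr2 were lower, and none of 7 border macrophage markers was called. The astrocyte marker Gfap was higher (1.02, adjusted p = 0.00493) at under 1 CPM in both group means, and the neutrophil marker S100a8 was lower (-0.63, adjusted p = 0.0152). Whether these markers came from other cells, and the part of such cells in the results, was not tested.

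With the vehicle, 9086 of 13452 genes tested were called, 67.5% of them. Of these, 4578 genes were higher (34.0% of those tested) and 4508 lower (33.5%). Rises were the larger changes, with 1075 genes called and over 2-fold higher (7.99%) and 505 over 2-fold lower (3.75%). The groups of mice did not overlap in 6490 genes (48.2%), and 6281 genes were both called and without overlap. Scaled to UMIs per cell in place of shares, 8035 genes were higher and 838 lower, so the near-even split belongs to the relative scale. The median log2 fold change of all genes was 0.44 on that scale. Counts and medians of gene lists below are to be read against these values of all genes on the same scale.

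Against the shared ATV:ISO mice, 4D9 alone gave 0 called genes of 13714 in the same test over the 12 AppSAA mice, with 277 genes at an unadjusted p under 0.05, and DESeq2 and limma-voom over the 8 mice also called 0 (113 and 407 genes unadjusted). ATV:4D9 gave 9627 called genes (70.2%) against the same isotype mice. The median absolute log2 fold change over all genes was 0.0393 for 4D9 and 0.353 for ATV:4D9. Both contrasts use the same isotype mice and so are not independent. ATV:ISO carries the vehicle and 4D9 does not, so 4D9 against ATV:ISO differs in the vehicle as well as in TREM2 binding. By the labels, no AppSAA mice were untreated or given an isotype without the vehicle. The effect of 4D9 against such mice was therefore not measured.

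**Figure D1:**
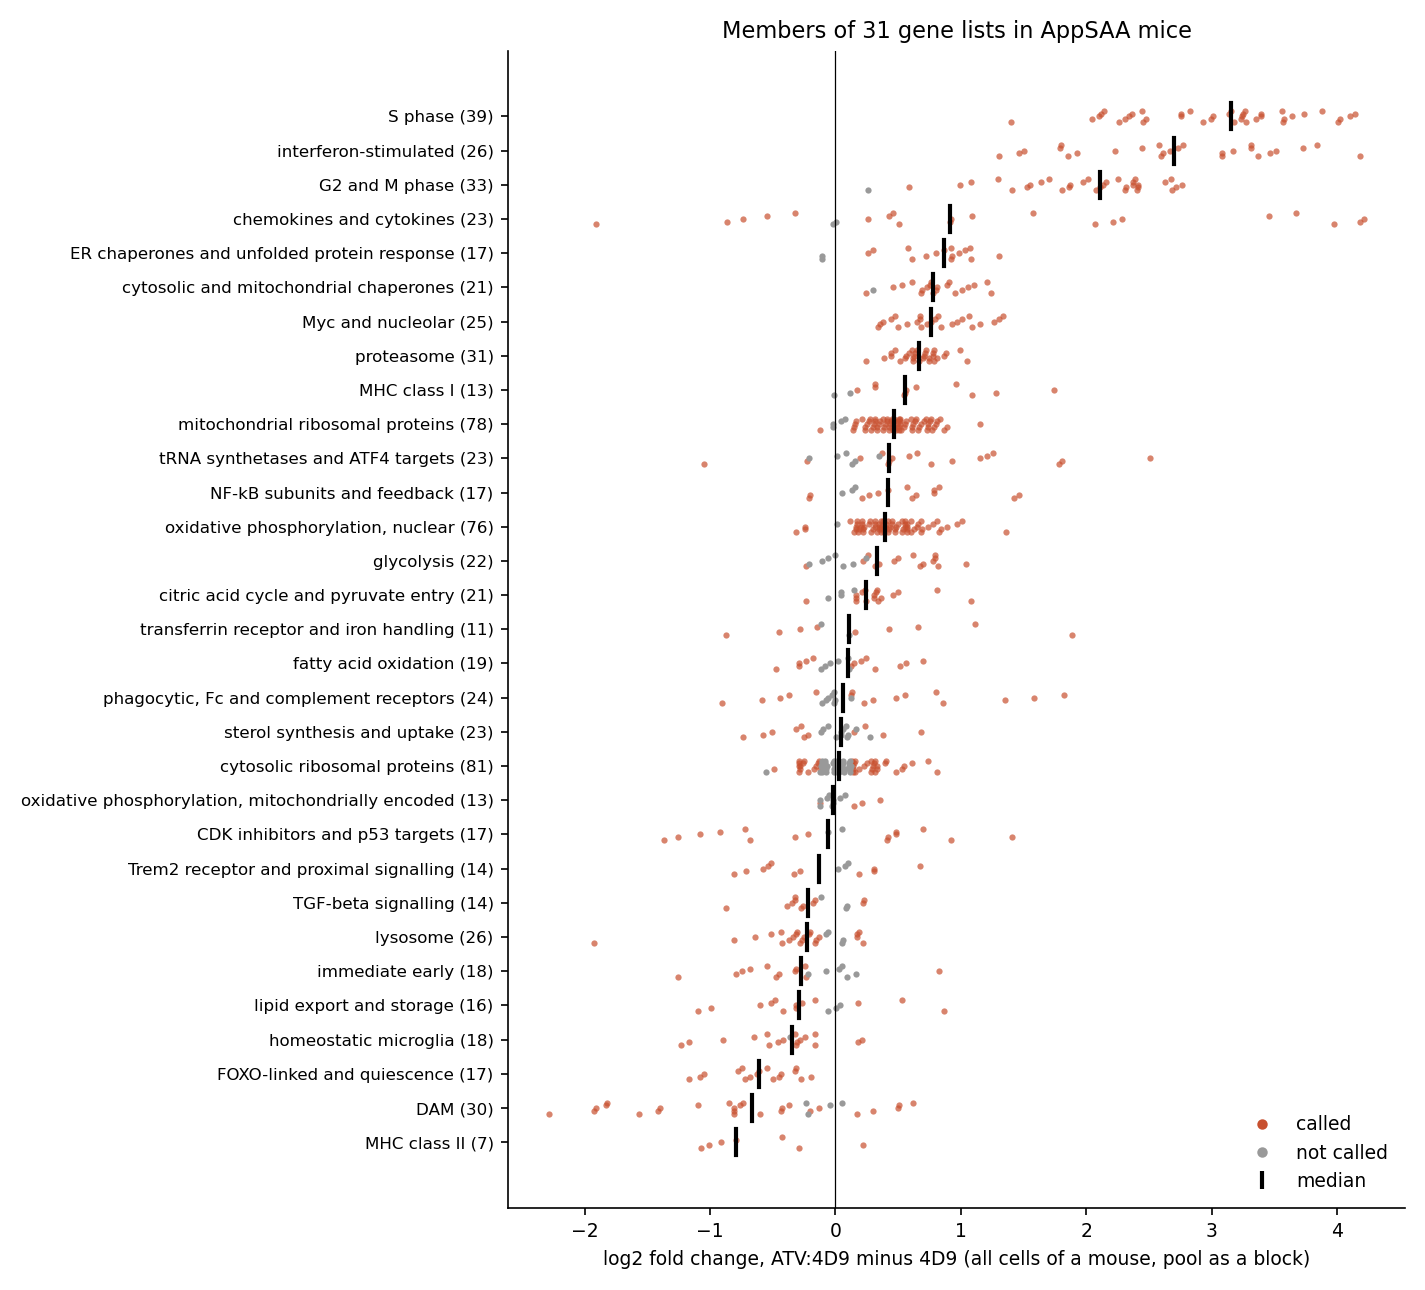
Log2 fold change (ATV:4D9 over 4D9, x axis) of the members of 31 gene lists (rows), with called and uncalled genes drawn apart and a bar at each list's median. The S phase (median 3.15), interferon-stimulated (2.70) and G2 and M phase (2.11) lists lie furthest to the right, and the MHC class II (-0.79) and DAM (-0.67) lists furthest to the left.

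The receptor that the antibody binds fell. Trem2 (chr17:48346401-48354147, GRCm38) read 4670.2, 4567, 4673 and 4398 CPM in pools 1 to 4 under 4D9 and 2318, 3052, 2722 and 2604 CPM under ATV:4D9, so the groups lay apart. Its mean went from 4577 ± 129 to 2674 ± 304 CPM (SD, n = 4 mice, 4536 under ATV:ISO), a log2 fold change of -0.71 ± 0.059 (adjusted p = 1.68e-05). Per cell the fall was smaller, from 54.5 to 45.5 UMIs, and did not pass the test (log2 fold change -0.25, adjusted p = 0.0596). The adaptors went the same way. Tyrobp fell by 0.52 on the log2 scale (adjusted p = 1.65e-04) and Hcst (DAP10), an adaptor that recruits PI3 kinase, by 0.80 (adjusted p = 0.00226). The kinase Syk (-0.54 ± 0.068, adjusted p = 1.64e-04), the ubiquitin ligase Cbl (-0.58 ± 0.048, adjusted p = 1.64e-05) and the lipid phosphatase Inpp5d (SHIP1, -0.33 ± 0.044, adjusted p = 2.05e-04) were lower. Plcg2, the phospholipase downstream of Syk, was at 0.024 ± 0.044 (adjusted p = 0.649). Pik3ap1, an adaptor of PI3 kinase, rose by 0.67 ± 0.057 (adjusted p = 1.82e-05), and the sheddases Adam10 (0.19) and Adam17 (0.31) rose as well. In all, 7 of 14 receptor and proximal signalling genes were lower and 4 higher (50% and 28.6%, against 33.5% and 34.0% of all genes). The median was -0.13. On the scale of UMIs per cell 1 was lower and 7 higher, against 838 and 8035 of 13452 genes. The median turned to 0.33 there (0.44 over all genes).

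The other receptor in play, the transferrin receptor, rose. Tfrc (chr16:32608920-32632794) stood at 4.87, 5.28, 6.26 and 7.76 CPM under 4D9 and 21.5, 15.8, 23.6 and 24.9 CPM under ATV:4D9, with no overlap and a mean of 6.49 CPM under ATV:ISO. The difference was 3.69-fold (log2 1.88 ± 0.10, adjusted p = 1.62e-06), at a low level of 0.370 UMIs per cell even under ATV:4D9. The iron importer Slc11a2 (0.66 ± 0.058, adjusted p = 2.32e-05) and the ferrireductase Steap3 (1.11 ± 0.11, adjusted p = 4.60e-05) rose too, while the iron exporter Slc40a1 (ferroportin) fell by 0.87 (adjusted p = 4.61e-04). Ferritin subunits rose, Fth1 by 0.43 and Ftl1 by 0.15, and Ncoa4, the receptor for ferritin breakdown, was at -0.45 ± 0.042 (adjusted p = 3.11e-05; 0.0098 per cell). Of 11 iron genes, 5 were higher and 4 lower (45.5% and 36.4%, near the 34.0% and 33.5% of all genes). Per cell 8 were higher and 1 lower, against 8035 and 838 of 13452 genes (median 0.57, against 0.44 over all genes). App, the gene altered in these mice, was at 0.032 ± 0.043 (adjusted p = 0.525).

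**Figure D2:**
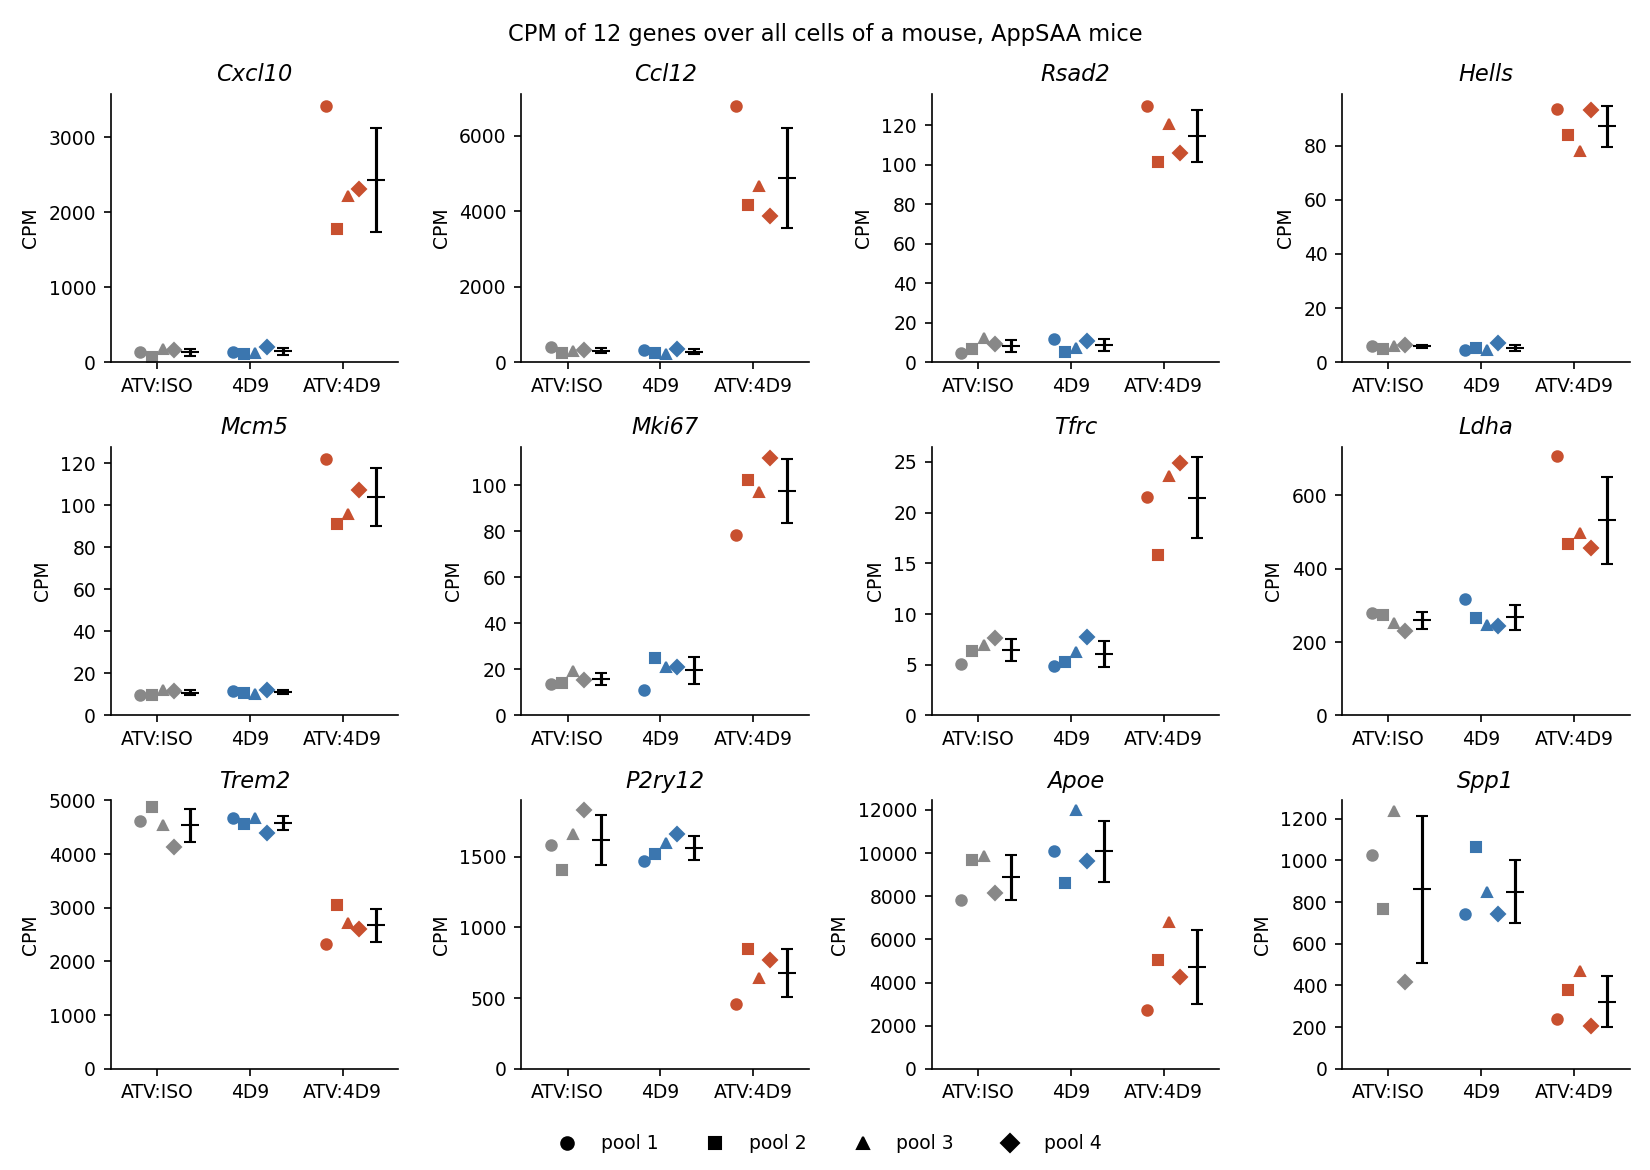
CPM (y axis, from 0) of 12 genes in each mouse of the 3 AppSAA groups, the marker shape giving the pool and the bar the mean ± SD of 4 mice. In Cxcl10, Mcm5 and Tfrc every ATV:4D9 mouse lies above every 4D9 and ATV:ISO mouse, and in Trem2 and P2ry12 below.

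Interferon-stimulated genes, which encode antiviral effectors and sensors, rose as a body. All 26 listed were tested, and all 26 were called higher and over 2-fold (7.99% of all genes were). All 26 had no overlap between the groups, against 48.2% of all genes in either direction. The median log2 fold change was 2.70, from 1.30 to 4.18. In single pools the medians lay between 2.08 and 2.72, on plain log2 CPM with a constant added, which shrinks the changes of genes at low CPM. Against ATV:ISO the median was -0.18 for 4D9 and 2.55 for ATV:4D9, both from the same isotype mice. Rsad2 (viperin) read 11.6, 5.26, 7.02 and 10.7 CPM under 4D9 and 129.7, 101, 120.3 and 106 under ATV:4D9, and rose by 3.84 ± 0.15 (adjusted p = 3.26e-07). Isg15, a ubiquitin-like modifier, went from 44.4 ± 8.39 to 568 ± 149 CPM, and the transcription factor Irf7 from 14.8 ± 3.18 to 141 ± 31.5 CPM. Smaller rises were seen for Stat2 (1.46) and the RNA sensor Ddx58 (RIG-I, 1.30). Ifit3 and Ifit3b are near-identical genes whose reads cannot be told apart with certainty.

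Promoters were searched for the core of the interferon-stimulated response element, GAAA followed after any 2 bases by GAAA, on both strands, in the RefSeq promoter table (GRCm38.p6, 250 bases before to 50 after the start of a gene). It was present in 12 of the 18 interferon-stimulated genes that the table holds (66.7%), in 397 of 10135 genes tested (3.92%) and in 1131 of 32851 promoters of the table (3.44%). Windows around it are shown for a chemokine and an antiviral gene whose values are given here, on the strand of the gene with the match in capitals. The match lies on the gene's strand in Cxcl10, from 213 bases before the start, and on the other strand in Rsad2, from 120 bases before it.
Cxcl10 (chr5:92349084-92349111, minus strand): cacgctttgGAAAGTGAAActtacctca
Rsad2 (chr12:26456554-26456581, minus strand): tggtccaacTTTCATTTTCagaaaacag
A match is a description of the sequence, and binding was not measured.

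Most genes of MHC class I antigen presentation rose. Of 13 genes, 11 were higher (84.6%, against 34.0% of all genes) and none lower (33.5% of all genes), with a median of 0.55. The peptide transporter Tap1 (1.28 ± 0.073, adjusted p = 2.48e-06), the class I transactivator Nlrc5 (1.74 ± 0.10, adjusted p = 3.03e-06) and the immunoproteasome subunits Psmb8 (0.55), Psmb9 (0.55) and Psmb10 (0.64) were among them. B2m (0.11 ± 0.060, adjusted p = 0.128) and H2-D1 (-0.0093 ± 0.080, adjusted p = 0.925) were not called. H2-Q4 and H2-Q7, which rose by 0.96 and 1.09, belong to a family of near-identical genes.

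Of 23 chemokines and cytokines, 16 were higher and 5 lower (69.6% and 21.7%, against 34.0% and 33.5% of all genes). Ccl12 (chr11:82101845-82103400), a ligand of Ccr2, stood at 322, 231, 209.7 and 341 CPM under 4D9 and at 6795, 4172, 4676 and 3885 CPM under ATV:4D9. Cxcl10 (chr5:92346638-92348889), a ligand of Cxcr3, read 136, 104, 119 and 205 and 3414, 1779, 2209 and 2301 CPM. The groups lay apart in both genes, with log2 fold changes of 4.21 ± 0.17 (adjusted p = 3.49e-07) and 4.18 ± 0.18 (adjusted p = 5.42e-07). Cxcl11, a further chemokine gene, of which only the RNA was measured, had the largest rise of the genes named here. It rose by 5.25 ± 0.28 (adjusted p = 1.64e-06), from 4.29 ± 2.65 to 149 ± 28.4 CPM. Ccl2 (3.67) and Ccl7 (3.46), also Ccr2 ligands, and the interleukin 12 subunit Il12b (3.97) rose too. Tnf rose by 2.21 ± 0.15 (adjusted p = 5.94e-06) and the interleukin 1 receptor antagonist Il1rn by 2.29 ± 0.18 (adjusted p = 1.23e-05), each more than Il1b (0.51) and Il1a (0.92).

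The direction was not shared by all secreted factors. Ccl6 fell from 924 ± 91.3 to 235 ± 26.1 CPM (-1.91 ± 0.090, adjusted p = 8.51e-07), and Cxcl14 (-0.86 ± 0.12, adjusted p = 2.52e-04), Csf1 (-0.74 ± 0.075, adjusted p = 4.78e-05), Cxcl2 (-0.55 ± 0.21, adjusted p = 0.0419) and Tgfb1 (-0.32 ± 0.043, adjusted p = 2.21e-04) were lower. Il6 and Il10 were not called, at 0.0039 ± 0.092 and -0.019 ± 0.40. Per cell 2 of the list were lower and 17 higher, against 838 and 8035 of 13452 genes (median 1.37, against 0.44 over all genes). Within cluster 1 the list gave 5 higher and 7 lower of 21, against 4.31% and 2.95% of all genes tested there. In each other cluster more of the list was higher than lower. Cluster 0 gave 5 higher and 1 lower of 18, and cluster 2 gave 8 and 7 of 22. Clusters 3, 4 and 5 gave 8 and 0 of 20, 13 and 4 of 21, and 10 and 3 of 22.

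Over all cells and on the relative scale, genes of the NF-kB system and immediate early genes moved in opposite directions. Of 17 NF-kB subunits and feedback genes, 12 were higher and 2 lower (70.6% and 11.8%, against 34.0% and 33.5% of all genes). Their median was 0.42. The noncanonical subunits Nfkb2 (0.78 ± 0.082, adjusted p = 5.65e-05) and Relb (0.61 ± 0.074, adjusted p = 1.34e-04), the coactivator Bcl3 (1.46 ± 0.16, adjusted p = 7.79e-05) and the adhesion molecule Icam1 (0.83 ± 0.11, adjusted p = 2.29e-04) rose. Rela (-0.20 ± 0.054, adjusted p = 0.0105) and Rel (-0.21 ± 0.044, adjusted p = 0.00267) were lower, and Nfkb1 was at 0.050 ± 0.042 (adjusted p = 0.325); the falls of Rela and Rel turn into rises on the scale of UMIs per cell. Among 18 immediate early genes, 11 were lower and 1 higher (61.1% and 5.56%, against 33.5% and 34.0% of all genes). Their median was -0.28. Per cell 3 were lower and 6 higher (838 and 8035 of 13452 over all genes), with a median of 0.18 that lay below the 0.44 of all genes. Jund fell by 0.79 (adjusted p = 3.17e-06), Jun by 0.68, Egr2 by 1.26 (adjusted p = 1.70e-05), and the exception was Ier3, at 0.83 ± 0.11 (adjusted p = 1.82e-04). Fos was at 0.029 ± 0.075 (adjusted p = 0.753).

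Genes of DNA replication rose in full. All 39 S phase genes were called, over 2-fold higher (7.99% of all genes were), and without overlap between the groups (48.2% of all). Their median log2 fold change was 3.15. In single pools the medians were 2.61 to 3.03, on plain log2 CPM with a constant added, which shrinks the changes of genes at low CPM. For 4D9 and ATV:4D9 against the shared ATV:ISO mice the medians were 0.0092 and 3.12. Mcm5, a subunit of the replicative helicase, read 11.8, 10.6, 10.3 and 12.2 CPM under 4D9 and 122, 91.2, 95.8 and 107 under ATV:4D9 (3.27 ± 0.067, adjusted p = 4.21e-08). Hells, a chromatin remodeller, went from 5.31 ± 1.16 to 87.3 ± 7.54 CPM (4.10 ± 0.099, adjusted p = 5.12e-08). The origin licensing factor Cdc6 (chr11:98907801-98923940) was at 1.05, 1.10, 1.33 and 1.16 CPM and then 20.7, 22.4, 16.0 and 21.3 CPM. Cyclins E1 and E2, which drive entry into S phase, rose by 3.87 and 4.02, and E2f1, their activator, by 3.24 ± 0.065 (adjusted p = 4.21e-08).

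Of 33 genes of G2 and mitosis, 32 were higher, 30 of them over 2-fold (median 2.11), and the centromere histone Cenpa was not called (0.26 ± 0.12). The proliferation marker Mki67 read 11.3, 25.1, 20.9 and 21.1 CPM under 4D9 and 78.6, 102, 97.1 and 112 under ATV:4D9, again without overlap (2.41 ± 0.12, adjusted p = 1.01e-06). Top2a (2.68 ± 0.11, adjusted p = 3.98e-07) and Aurkb (2.68 ± 0.071, adjusted p = 5.46e-08) rose further than the late mitotic genes Ube2c (0.99), Cdc20 (1.08) and Ccnb2 (0.59).

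Promoters of the S phase genes often held one of the E2F-type words TTTGGCGC, TTTCCCGC, TTTCGCGC or TTTGCCGC. On either strand, such a word was found in 14 of 29 S phase genes of the RefSeq table (48.3%), in 1 of 27 G2 and M phase genes, in 1 of 18 interferon-stimulated genes, in 490 of 10135 genes tested (4.84%) and in 744 of 32851 promoters (2.27%). The interferon-type core was in 0 of the 29 S phase promoters. Windows are shown for 4 replication genes, 3 of which are among the 10 largest rises, with the match in capitals. The matches begin 138 bases (Cdc6, match on the other strand) and 62 bases (Hells) before the RefSeq start, and 8 (Dtl) and 153 bases (Mcm5) before it. The RefSeq start of Cdc6 lies inside the GENCODE span given above for this gene. In Mcm5 a further match on the other strand overlaps the one shown.
Cdc6 (chr11:98908003-98908030, plus strand): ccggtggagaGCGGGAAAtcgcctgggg
Hells (chr19:38930918-38930945, plus strand): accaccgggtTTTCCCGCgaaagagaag
Dtl (chr1:191575535-191575562, minus strand): gtgacgtcagTTTGGCGCggagtttggc
Mcm5 (chr8:75109346-75109373, plus strand): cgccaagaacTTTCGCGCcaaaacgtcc
Of the 10 largest rises the table holds 8, of which 3 held an E2F-type word and 2 an interferon-type core. Ccl12, Oasl1 and Ccne1 held neither in this window. The checkpoint kinase gene Chek1 held an interferon-type core in place of an E2F-type word, and Cxcl11 and Ccne2 are named only.

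Brakes on the cell cycle went both ways. Cdkn1a (p21), a p53 target, rose from 62.9 ± 10.2 to 159 ± 16.1 CPM (1.41 ± 0.098, adjusted p = 6.78e-06). Cdkn1b (p27, -0.68 ± 0.077, adjusted p = 8.66e-05), Cdkn1c (p57, -1.25 ± 0.12, adjusted p = 2.89e-05) and Cdkn2b (p15, -1.08 ± 0.16, adjusted p = 4.59e-04) fell, and Cdkn2c (p18) rose by 0.92 ± 0.076 (adjusted p = 1.61e-05). Over 17 CDK inhibitors and p53 targets, 7 were higher and 8 lower (41.2% and 47.1%, against 34.0% and 33.5% of all genes). Their median of -0.063 was 0.40 per cell and 0.010 with every cell thinned to 3000 UMIs. All 17 genes linked to FOXO factors and quiescence were lower, against 33.5% of all genes, with a median of -0.61. Per cell the median was -0.15 and 5 of 17 were called lower, none higher (838 and 8035 of 13452 over all genes). Foxo1 (-0.63), Foxo3 (-0.78), Klf4 (-1.04), the PI3 kinase inhibitor Pik3ip1 (-1.08) and cyclin G2 (Ccng2, -1.17 ± 0.11, adjusted p = 2.61e-05) are examples.

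Nuclear genes of energy metabolism rose. Of 22 glycolysis genes, 14 were higher and 1 lower (63.6% and 4.55%, against 34.0% and 33.5% of all genes, median 0.33). Lactate dehydrogenase A (Ldha) read 317, 266, 246 and 244 CPM under 4D9 and 708, 467, 497 and 457 under ATV:4D9 (1.04 ± 0.072, adjusted p = 6.44e-06), with pool 1 highest in both groups. Pgk1 (0.82), Gapdh (0.79), Pkm (0.79) and the lactate exporter Slc16a3 (0.77) rose with it, whereas the other lactate dehydrogenase, Ldhb, was lower (-0.24 ± 0.046, adjusted p = 0.00180), a direction that turns per cell (0.22). Hexokinases Hk1 (-0.21 ± 0.095, adjusted p = 0.0824) and Hk2 (0.061 ± 0.048, adjusted p = 0.289) were not called. Of 76 nuclear genes of oxidative phosphorylation, 72 were higher and 3 lower (Ndufa1, Ndufa6 and Uqcrh, none called lower per cell), with a median of 0.40. Cytochrome c (Cycs) rose by 1.36 ± 0.080 (adjusted p = 2.76e-06) and the ATP synthase gene Atp5g1 by 1.01 ± 0.069 (adjusted p = 5.94e-06). Of the 13 genes that mitochondrial DNA encodes, 3 were higher, 1 lower and 9 not called (23.1% and 7.69%, against 34.0% and 33.5% of all genes, median -0.022). Per cell all 13 were higher (median 0.44), against 8035 of 13452 genes (median 0.44). With thinned cells 6 were higher and none lower (median 0.11), against 3576 and 3426 of 11724 genes.

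Fuel pathways were uneven. In the citric acid cycle 16 of 21 genes were higher and 1 lower (76.2% and 4.76%, against 34.0% and 33.5% of all genes). Idh3a (1.08 ± 0.077, adjusted p = 7.60e-06) and fumarase Fh1 (0.81 ± 0.075, adjusted p = 3.02e-05) rose most. Fatty acid oxidation gave 8 higher and 5 lower of 19 (42.1% and 26.3%, against 34.0% and 33.5% of all genes), with Acadl up (0.70 ± 0.045, adjusted p = 4.30e-06) and Acads down (-0.47 ± 0.049, adjusted p = 5.32e-05), and its gate Cpt1a was at -0.12 ± 0.056 (adjusted p = 0.0923). Per cell 15 fatty acid oxidation genes were higher and none lower, against 8035 and 838 of 13452 genes (median 0.56, against 0.44 over all genes). For sterol synthesis and uptake 4 of 23 were higher and 7 lower (17.4% and 30.4%, against 34.0% and 33.5% of all genes). The sterol median of 0.042 turned to -0.027 with library size only. Per cell 16 sterol genes were higher and none lower, against 8035 and 838 of 13452 genes (median 0.50, against 0.44 over all genes). With every cell thinned to 3000 UMIs, the balance turned to 10 higher and 1 lower (median 0.18), against 3576 and 3426 of 11724 genes. Hmgcs1, an early enzyme of the pathway, fell (-0.51 ± 0.052, adjusted p = 4.99e-05).

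Over all cells, most lists of the machinery that makes and folds protein rose, but cytosolic ribosomal proteins stayed near the share of all genes. All 25 Myc-linked and nucleolar genes were higher, with a median of 0.76. The spermidine synthase Srm (1.30 ± 0.078, adjusted p = 3.04e-06), ornithine decarboxylase Odc1 (1.33 ± 0.093, adjusted p = 6.66e-06) and the nucleolar proteins Nop58 (1.26), Nop56 (1.15) and Ncl (1.08) rose more than Myc itself (0.34 ± 0.083, adjusted p = 0.00642). Mitochondrial ribosomal proteins were higher in 73 of 78 genes (median 0.46), and Mrpl9 was the 1 called lower, though not per cell (0.34). Of cytosolic ribosomal proteins 28 of 81 were higher (34.6%, near the 34.0% of all genes), 15 lower and 38 not called, and the median of 0.030 (-0.038 with library size only) lay beside a fall of the summed CPM from 163318 to 159067. Per cell 70 of them were higher and none lower, against 8035 and 838 of 13452 genes (median 0.49, against 0.44 over all genes). With cells thinned to 3000 UMIs, 49 of them were higher and 3 lower (median 0.19), against 3576 and 3426 of 11724 genes. All 31 proteasome subunits were higher (median 0.67), Psmd14 most (1.05 ± 0.048, adjusted p = 6.85e-07). Of 17 ER chaperones and unfolded protein response genes 15 were higher and none lower (median 0.86), with Hspa5 (BiP) at 1.08 ± 0.063 (adjusted p = 2.52e-06) and Creld2 at 1.31 ± 0.083 (adjusted p = 4.18e-06). The stress factors Xbp1 (-0.11 ± 0.054, adjusted p = 0.101) and Ddit3 (-0.11 ± 0.099, adjusted p = 0.343) were not called. Of 21 cytosolic and mitochondrial chaperones 20 were higher, Hsp90aa1 (1.24) and Hspd1 (1.21) most among those at 10 CPM or more, and Hspa1b, near-identical to Hspa1a, was not called.

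Among tRNA synthetases and ATF4 targets, 15 of 23 were higher and 2 lower (65.2% and 8.70%, against 34.0% and 33.5% of all genes). Examples are asparagine synthetase Asns (2.51 ± 0.18, adjusted p = 8.42e-06), Shmt2 (1.81 ± 0.10, adjusted p = 2.04e-06), Mthfd2 (1.78 ± 0.12, adjusted p = 5.65e-06), Phgdh (1.21 ± 0.069, adjusted p = 2.45e-06) and the transporter Slc7a5 (1.15). Atf4 itself was lower (-0.23 ± 0.047, adjusted p = 0.00258), a direction that turns per cell, and Ddit4, an inhibitor of mTOR, fell (-1.05 ± 0.10, adjusted p = 3.42e-05).

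Most homeostatic genes fell on the relative scale. P2ry12, the purinergic receptor of resting microglia (chr3:59216272-59262871), read 1470.5, 1521, 1594 and 1659.8 CPM under 4D9 and 461, 845, 639 and 769 under ATV:4D9. The groups lay apart, and the log2 fold change was -1.17 ± 0.10 (adjusted p = 2.26e-05). Of 18 homeostatic genes 15 were lower and 2 higher (83.3% and 11.1%, against 33.5% and 34.0% of all genes, median -0.34). Among the lower ones were Csmd3 (-1.23), Crybb1 (-0.90), Siglech (-0.65) and the identity factor Sall1 (-0.53). Tmem119 (0.18 ± 0.043, adjusted p = 0.00635) and Olfml3 (0.21 ± 0.047, adjusted p = 0.00354) were the 2 higher. With every cell thinned to 3000 UMIs Tmem119 was at -0.045 (adjusted p = 0.486) and 1 gene of the list was higher (3576 of 11724 over all genes). Per cell 3 of the list were lower and 4 higher (838 and 8035 of 13452 over all genes), with a median of 0.12 against 0.44. There the fall of P2ry12 (-0.71, adjusted p = 1.82e-07) stood, while Cx3cr1, the fractalkine receptor, turned from -0.28 to 0.18.

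Disease-associated microglia (DAM) genes fell too. Of 30, 21 were lower, 9 of them over 2-fold (3.75% of all genes were), and 5 higher, with a median of -0.67. Per cell 14 were lower and 8 higher (median -0.21), against 838 and 8035 of 13452 genes (median 0.44). Apoe (chr7:19696109-19699188), the main brain apolipoprotein, stood at 10078, 8619, 11978 and 9634 CPM under 4D9 and 2704, 5048, 6817 and 4239 under ATV:4D9, a log2 fold change of -1.10 ± 0.16 (adjusted p = 3.42e-04). Spp1 (osteopontin) read 743, 1067, 851 and 743 and 238, 378, 472 and 205 CPM (-1.40 ± 0.14, adjusted p = 5.26e-05). Cst7 (-0.81), Itgax (-0.76), Clec7a (-0.81) and the lipase Lpl (-0.60) were lower by less than 2-fold, Igf1 (-1.83), Fabp5 (-1.82) and Baiap2l2 (-2.28) by more. Gpnmb was called at -1.42 ± 0.22 (adjusted p = 4.88e-04) although the highest ATV:4D9 mouse (pool 3, 82.0 CPM) lay above the lowest 4D9 mouse (pool 1, 77.6 CPM). The 5 higher members were Axl (0.30 ± 0.067, adjusted p = 0.00402), Ctsz (0.17), Cd52 (0.51), Lilrb4a (0.62) and Capg (0.50). Thinning every cell to 3000 UMIs gives the cells kept equal weight and leaves out 382 cells with fewer. With it 19 of 30 were lower and 6 higher, against 3426 and 3576 of 11724 genes. But the median was -0.24, Apoe -0.53 (adjusted p = 8.88e-04) and Cst7 -0.23 (adjusted p = 0.00674).

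MHC class II presentation fell in 6 of 7 genes (85.7%, against 33.5% of all genes, median -0.79). Per cell 4 were lower, against 838 of 13452 genes (median -0.34, against 0.44 over all genes). H2-Aa went from 185 ± 46.3 to 87.5 ± 40.2 CPM (-1.07 ± 0.20, adjusted p = 0.00146) and the class II transactivator Ciita was at -1.01 ± 0.25 (adjusted p = 0.00610). The invariant chain Cd74 read 1030.0, 783, 948 and 624 CPM and then 552, 667, 856 and 559 CPM, which overlap. Its call (-0.29 ± 0.11, adjusted p = 0.0428) was lost without the pool as a block, and its sign turned on the scale of UMIs per cell and with every cell thinned to 3000 UMIs (0.17, adjusted p = 0.0738). With thinned cells the median of the class II list was -0.35, with 4 of 6 genes lower (3426 of 11724 over all genes). H2-DMb1 was the 1 higher member (0.22 ± 0.045, adjusted p = 0.00259).

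Lipid handling and lysosomal genes leaned down on the relative scale. For lipid export and storage 10 of 16 were lower and 3 higher (62.5% and 18.75%, against 33.5% and 34.0% of all genes, median -0.29). Per cell 2 were lower and 7 higher (838 and 8035 of 13452 over all genes), with a median of 0.17 against 0.44. Apoc1 fell beside Apoe (-0.99 ± 0.23, adjusted p = 0.00481), the liver X receptor gene Nr1h3 rose (0.86 ± 0.28, adjusted p = 0.0232), and the cholesterol exporter Abca1 was higher (0.18 ± 0.041, adjusted p = 0.00438, groups overlapping). Of 26 lysosomal genes 18 were lower and 4 higher (69.2% and 15.4%, against 33.5% and 34.0% of all genes, median -0.23). Per cell 11 were higher and 2 lower (8035 and 838 of 13452 over all genes), with a median of 0.23 that lay below the 0.44 of all genes. The proteases Ctsl (-0.81 ± 0.065, adjusted p = 1.42e-05) and Ctsd (-0.44 ± 0.050, adjusted p = 9.81e-05), Hexa (-0.64 ± 0.060, adjusted p = 2.96e-05) and the proton pump subunit Atp6v0d2 (-1.92 ± 0.21, adjusted p = 7.79e-05) fell.

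Receptors for uptake went both ways on the relative scale. Of 24 phagocytic, Fc and complement receptor genes tested, 11 were higher and 5 lower (45.8% and 20.8%, against 34.0% and 33.5% of all). The median of 0.060 turned to -0.0082 with library size only. Per cell 20 were higher and 1 lower, against 8035 and 838 of 13452 genes (median 0.52, against 0.44 over all genes). The activating Fc receptor Fcgr4 rose (1.35 ± 0.090, adjusted p = 5.33e-06), as did Fcgr1 (0.80 ± 0.068, adjusted p = 1.78e-05), the C5a receptor C5ar1 (1.58 ± 0.12, adjusted p = 9.86e-06), Cd36 (1.82 ± 0.10, adjusted p = 2.37e-06) and Msr1 (0.85 ± 0.19, adjusted p = 0.00384). Fcgr3 (-0.91 ± 0.079, adjusted p = 2.17e-05), the inhibitory Fcgr2b (-0.59 ± 0.067, adjusted p = 9.26e-05) and the TAM receptor Mertk (-0.44 ± 0.056, adjusted p = 1.63e-04) fell, the last while its relative Axl rose. In TGF-beta signalling, which maintains homeostatic microglia, 9 of 14 genes were lower and 2 higher (64.3% and 14.3%, against 33.5% and 34.0% of all). Their median was -0.22, and Tgfb1, Tgfbr2 (-0.33) and Ltbp3 (-0.87) were among the lower ones. Per cell 1 was lower and 6 higher (838 and 8035 of 13452 over all genes), with a median of 0.24 against 0.44.

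Over all genes at a mean of 10 CPM or more without overlap, the 10 largest rises were Cxcl11, Ccl12, Cxcl10, Cdc6, Hells, Oasl1 (4.06), Ccne2, Chek1 (4.01), Dtl (4.00) and Ccne1, with log2 fold changes from 3.87 to 5.25. Each of them belongs to chemokines, interferon-stimulated genes or DNA replication and its checkpoints. The 10 largest falls were smaller, from -2.28 to -1.72. Besides Baiap2l2, Ccl6, Igf1 and Fabp5 they were Tmem163 (-2.12), a zinc transporter, Lgi2 (-2.08), the Wnt antagonist Dkk2 (-1.95), Mamdc2 (-1.85), Tcp11l2 (-1.83) and Pianp (-1.72). Dkk2 read 13.4, 19.8, 26.0 and 22.9 CPM under 4D9 and 1.90, 6.77, 8.23 and 4.86 under ATV:4D9.

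The make-up of the cells by deposited cluster differed between the groups in every cluster. The authors' coarser clustering has 6 unnamed clusters. Clusters 0 and 3 were the highest of the 6 in homeostatic genes (median log2 ratio to the other cells of 1.00 and 0.77), and differed in immediate early genes (-1.84 and 1.54), the leading list of cluster 3. Cluster 1 was highest in MHC class II (1.69) and DAM genes (1.5), cluster 4 in G2 and M phase genes (4.05) and cluster 5 in interferon-stimulated genes (2.64), while cluster 2 led in ER chaperones (0.70). Clusters 0 and 3 together held 55.2, 59.0, 53.7 and 53.5% of the cells in the 4 mice given 4D9 and 2.65, 10.9, 4.35 and 7.24% under ATV:4D9. Cluster 1 went from 39.4 ± 2.73% to 13.5 ± 3.05% (SD, n = 4 mice). In return, cluster 2 rose from 2.50 ± 0.365% to 35.4 ± 4.54%, cluster 4 from 1.27 ± 0.311% to 22.4 ± 3.33% and cluster 5 from 1.5 ± 0.271% to 22.4 ± 4.26%. ATV:ISO mice held 2.34%, 0.949% and 2.48% in these 3 clusters, near 4D9.

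In each cluster the groups of mice lay apart and all 4 pools gave the same direction (exact 2-sided permutation p = 0.0286, the smallest possible, or 0.0371 when adjusted as above), and a paired test of 4 pools cannot pass 0.05. The Shannon index of the cluster shares, a measure of how evenly cells spread over them, rose from 1.28 ± 0.0279 to 1.51 ± 0.107 (exact permutation p = 0.0286). Its call was lost without any 1 of the 4D9 mice (adjusted p = 0.0743 in the same test). The difference itself hardly moved, from 0.225 to between 0.216 and 0.234. The clusters were made from the same expression values as the gene results, so these shares describe the same change and are not separate evidence of it. At the authors' finer resolution, cluster 8, with 1410 of its cells in cluster 1, 733 in cluster 2 and 303 in cluster 4 over the whole series, went from 3.82 ± 1.29% to 5.0 ± 1.80%, higher in 4 of 4 pools although the ranges overlap, while finer clusters 3 and 6 fell to 10.2% and 2.55% from 27.5% and 9.22%.

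**Figure D3:**
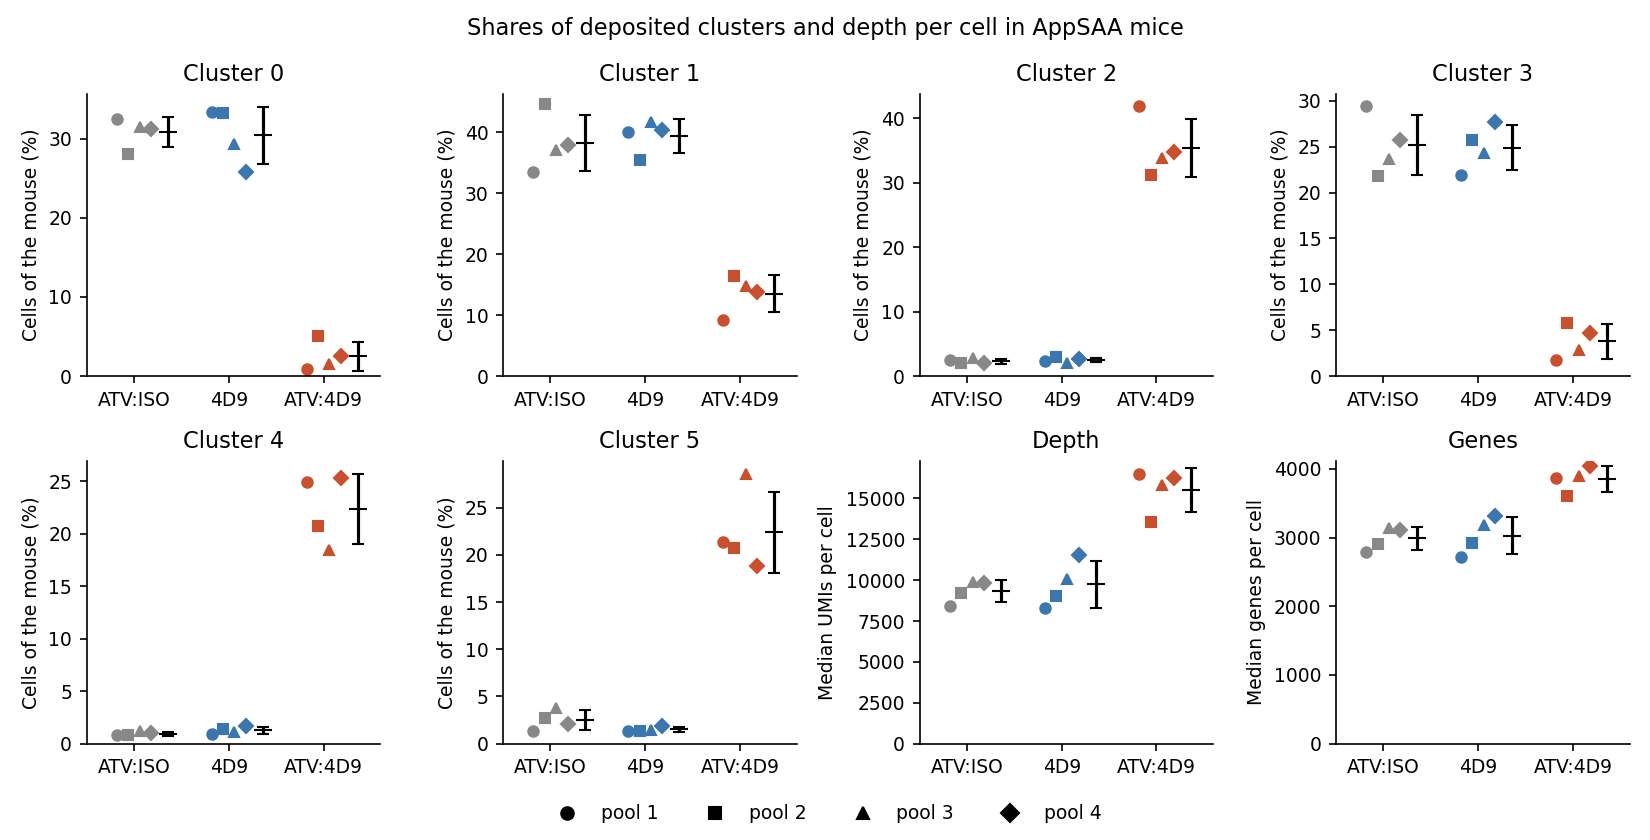
Share of cells (%, y axis from 0) in deposited clusters 0 to 5 and median UMIs and genes per cell in each mouse of the 3 AppSAA groups, the marker shape giving the pool and the bar the mean ± SD of 4 mice. Clusters 0, 1 and 3 fall and clusters 2, 4 and 5 rise under ATV:4D9 in each of the 4 pools, with no overlap, while 4D9 and ATV:ISO lie together.

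The same test was run within each cluster, on cells of 1 cluster summed per mouse. Called genes were 424 of 10388 in cluster 0 (4.08%, with 3.13% higher and 0.953% lower), 844 of 11619 in cluster 1 (7.26%, with 4.31% and 2.95%) and 2135 of 11119 in cluster 2 (19.2%, with 10.5% and 8.65%). In cluster 3 they were 954 of 10403 (9.17%, with 6.56% higher and 2.61% lower), in cluster 4 2533 of 10786 (23.5%, with 12% and 11.5%) and in cluster 5 2081 of 10779 (19.3%, with 11.8% and 7.48%). Without the pool as a block these counts were 62, 191, 1086, 257, 2198 and 1385, and without pool 4 they were 239, 443, 1343 and 457 in clusters 0 to 3 and 1342 in cluster 5. They were also over 1.5 times lower in cluster 1 without pool 1 (499) and in clusters 2 and 5 without pool 3 (1357 and 1308). The sums are thin where a cluster is rare in 1 group, with 37 to 195 cells per mouse of cluster 0 under ATV:4D9 and 26 to 54 of cluster 4 under 4D9, so counts of calls are not to be set against each other. Depth moved with the group inside clusters 2 and 5 as well, at medians of 12331 and 16311 UMIs per cell in cluster 2 and 10772 and 14730 in cluster 5, but by less in clusters 0 (7235 and 7521), 3 (8954 and 9703) and 4 (19037 and 19735), and it was lower under ATV:4D9 in cluster 1 (14882 and 13176). The part of depth was not tested. Members of a list called within a cluster are to be read against the shares of all genes given here for that cluster. The smallest p-values within clusters lean on the spread shared by all genes as well as on the mice compared.

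Interferon-stimulated genes rose inside every cluster. They were called higher in 16 of 24 in cluster 0, 25 of 26 in cluster 1, 25 of 26 in cluster 2, 22 of 24 in cluster 3, 25 of 26 in cluster 4 (1 lower) and 12 of 26 in cluster 5, the cluster in which they are highest, with medians of 0.96, 1.53, 1.69, 1.18, 1.89 and 0.30. Ccl12 was called higher in all 6, from 1.16 ± 0.11 (adjusted p = 1.22e-05) in cluster 1 to 2.84 ± 0.20 (adjusted p = 1.03e-08) in cluster 4. Cxcl10 was as well, from 0.39 ± 0.11 (adjusted p = 0.0486) to 2.05 ± 0.23 (adjusted p = 3.24e-06) in the same clusters. P2ry12 was lower in all 6, from -1.15 ± 0.081 (adjusted p = 9.79e-11) in cluster 5 to -0.33 ± 0.11 (adjusted p = 0.0329) in cluster 4.

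DAM genes differed in direction between clusters. In cluster 2, 20 of 29 were lower and 1 higher (median -0.56), and in cluster 4, 21 of 29 were lower and none higher (median -0.73). In cluster 3, 15 of 29 were higher and none lower, in cluster 0 9 higher and none lower, in the DAM-high cluster 1 7 higher and 9 lower (median -0.0054), and in cluster 5 8 higher and 11 lower of 29 (median -0.060). Apoe thus took both signs. It rose by 0.36 ± 0.073 (adjusted p = 0.00700) in cluster 1 and by 0.99 ± 0.099 (adjusted p = 3.71e-07) in cluster 3, and changed by -1.22 ± 0.14 (adjusted p = 6.11e-07) in cluster 2 and -1.68 ± 0.16 (adjusted p = 4.69e-07) in cluster 4. Spp1 rose in cluster 1 (0.60 ± 0.16, adjusted p = 0.0348) and fell in cluster 4 (-2.30 ± 0.24, adjusted p = 1.19e-06). Cd74, which was lower over all cells, rose in clusters 0 (1.37 ± 0.093, adjusted p = 8.04e-20) and 3 (1.39 ± 0.13, adjusted p = 1.61e-07). So small a p-value in cluster 0 leans on the spread shared by all genes, with 37 to 195 cells per mouse under ATV:4D9.

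The phases differed in cluster 4, the cluster highest in G2 and M phase genes. There, 36 of 39 S phase genes were higher (median 1.02) and all 33 G2 and M phase genes lower (median -1.17), with Mki67 at -1.16 ± 0.087 (adjusted p = 2.17e-08) and Mcm5 at 1.25 ± 0.11 (adjusted p = 1.55e-07). This cluster is 2 clusters at the finer resolution, of which finer cluster 4 went from 0.259% to 16.0% of cells and finer cluster 7 from 1.09% to 7.27%, so its cells came mostly from finer cluster 7 under 4D9 and from finer cluster 4 under ATV:4D9. S phase genes were also higher in clusters 2 (34 of 39, median 0.82) and 5 (38 of 39, median 2.15), where Mki67 changed by 2.67 ± 0.40 (adjusted p = 1.67e-05). In cluster 3, 9 of 27 S phase genes were higher and none lower, in cluster 0 1 of 26 was higher, and in cluster 1 none of 37 was called.

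Trem2 was lower within clusters 2 (-0.49 ± 0.064, adjusted p = 2.92e-06), 4 (-0.69 ± 0.086, adjusted p = 1.10e-05) and 5 (-0.51 ± 0.072, adjusted p = 7.83e-06), and was not called in clusters 0, 1 and 3, at -0.16, -0.12 and -0.064. Tfrc rose within clusters 2 (0.93 ± 0.18, adjusted p = 5.62e-04), 4 and 5 (1.70 ± 0.32, adjusted p = 3.33e-04) and fell in cluster 1 (-0.61 ± 0.17, adjusted p = 0.0392). ER chaperones were higher in 7 to 14 of 17 in clusters 0, 2, 3, 4 and 5 but lower in 13 of 17 and higher in none in cluster 1 (median -0.29), where 6 of 25 Myc-linked and nucleolar genes were lower and none higher (median -0.18). Sterol genes were lower in 13 of 23 in cluster 1 (median -0.47) and 14 of 23 in cluster 4 (median -0.66). Cytosolic ribosomal proteins were higher in 62 of 81 in cluster 0 and 68 of 81 in cluster 3, with small medians (0.29 and 0.36). Mitochondrially encoded genes were higher in 11 and 12 of 13 there and lower in 6 of 13 in cluster 4.

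Some genes named for the size of their change within a cluster are given here. In cluster 0, Ifi27l2a (1.44 ± 0.093, adjusted p = 6.72e-21) and Cd74 rose most and Clec4a3 fell most (-0.65 ± 0.12, adjusted p = 4.57e-05). In cluster 1, Isg15 led the rises (1.89 ± 0.10, adjusted p = 6.70e-08) and the amino acid oxidase Il4i1 the falls (-1.35 ± 0.075, adjusted p = 7.37e-08). Cluster 3 gained Fxyd5 (1.54 ± 0.10, adjusted p = 1.0e-09) and lost Crybb1, a crystallin gene that is also a microglial marker, (-0.87 ± 0.081, adjusted p = 1.64e-07) and the transcription factor Maf (-0.67 ± 0.078, adjusted p = 3.62e-06). Ramp1, a subunit of the CGRP receptor, fell in clusters 2 (-1.87 ± 0.11, adjusted p = 5.11e-12) and 4 (-3.53 ± 0.10, adjusted p = 1.27e-13). In cluster 4 the mitotic genes Ccnb2 (-3.00 ± 0.11, adjusted p = 2.16e-12) and Cenpa fell, and in cluster 5 the factor Sox4 (-1.54 ± 0.13, adjusted p = 1.26e-09).

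**Figure D4:**
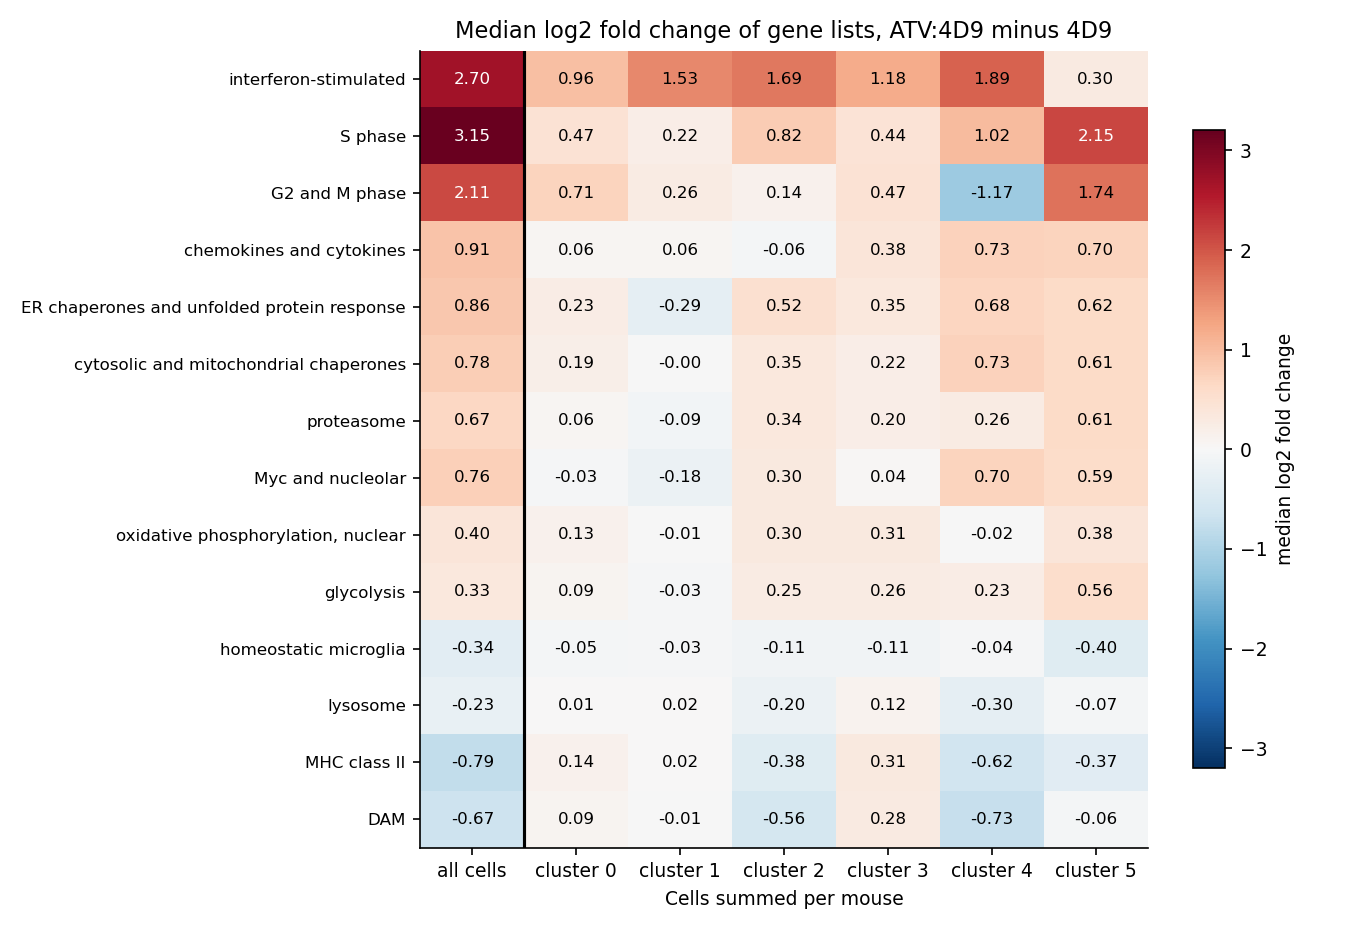
Heat map of the median log2 fold change (ATV:4D9 over 4D9, color scale) of 14 gene lists (rows) over all cells and within deposited clusters 0 to 5 (columns). Interferon-stimulated genes are positive in all 6 clusters (0.96, 1.53, 1.69, 1.18, 1.89 and 0.30), while DAM genes are negative in clusters 2 and 4 (-0.56 and -0.73) and positive in cluster 3 (0.28).

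The difference in CPM over all cells was also split, pool by pool, into a part from how the UMIs fell into clusters and a part from levels within clusters. The share part was 83.2% of the difference for DAM genes (75.4 to 101% in single pools), 69.0% for S phase, 61.5% for interferon-stimulated, 67.6% for chemokine and cytokine and 58.3% for homeostatic genes. It was 166% for G2 and M phase genes (157 to 181% in single pools), where levels within clusters went against the total in each pool. For MHC class II (103%, 81.1 to 148% in single pools) and Apoe (116%, 96.7 to 148%) the pools lay on both sides of 100%. Where the total difference was small against its parts, the share was of little use, as in cytosolic ribosomal proteins (50.4 to 2391% in single pools). For Trem2 it was 56.5%, for Tfrc 62.6%, for Cxcl10 58.5% and for Ccl6 24.2%. The split describes these mice and clusters and carries no test.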

How the data were processed

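Brain microglia were measured by single-cell RNA sequencing. According to the study's methods and the submitters' processing notes, the authors used Cell Ranger 6.1.1 with mm10, told the mice of a pool apart by their CellPlex tags, and clustered the cells. They deposited UMI counts per gene and cell with no normalization, and an annotation with each cell's mouse, group, pool and cluster at resolutions 0.2 (6 clusters) and 0.4 (9 clusters). The deposited UMI total, gene number and mitochondrial percent of each cell were recomputed from the counts and matched in all 74758 cells. Besides these checks, the deposited mitochondrial percent and UMI totals gave per-mouse measures. The UMI totals also gave the medians by cluster and the limit on UMIs per cell used as an alternative. Which cells the authors removed is not given in the sources used here.

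All cells were kept and no doublet caller was run, and a limit of 1000 to 25000 UMIs per cell served as an alternative. There were 3782 cells (12.6%) above and 55 below it, and 543 barcodes occurred in more than 1 pool, 83 of them within the 8 mice. UMIs were summed per mouse (27526806 to 102446549) and tested in edgeR 4.0.16 (R 4.3.3) by the quasi-likelihood test, with TMM normalization after filterByExpr, the pool as a block and Benjamini-Hochberg adjustment over the 13452 genes tested (called at 0.05). The standard error was taken from the fold change and its F statistic. Sums per mouse and cluster of at least 20 cells were fitted the same way. The pools pair the mice by the labels, and deviations of the paired mice from their group means correlated at 0.449, 0.188, 0.436 and 0.483. Mice of different pools gave -0.463 to 0.260, a range that holds the value of the second pair. Per-mouse measures were compared with 2-sided exact permutation tests in scipy 1.17.1. DESeq2 1.42.0 and limma 3.58.1 were alternatives. The 31 gene lists and the members of the comparison were chosen with earlier results of these data known, and genes outside the rule below were picked from the lists after their values were seen. The rule names the 10 largest rises and falls (called, mean of at least 10 CPM, no overlap between groups), up to 2 of each direction per list, 20 genes of prior interest, and the 3 largest of each direction per cluster (mean of at least 50 CPM). Alternatives for 4D9 against ATV:ISO were chosen after seeing the data. Gene coordinates are from GENCODE vM21 (GRCm38) and promoters from RefSeq (GRCm38.p6), with chromosome 18 left out. P-values of the gene tests rest on the spread between mice, which the fit moderates toward the spread shared by all genes. The smallest p-values within clusters therefore lean on that shared spread as well as on the mice compared. The code was tested on simulated data. Some genes of the lists are not reported here by name.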

Additional observations from a re-analysis of the deposited data

Results flagged for a closer look

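In 16 of 272 groups of 4 mice examined, over the named genes and the per-mouse measures, 1 mouse stood apart by Dixon's test (its gap to the nearest mouse as a share of the group's range). Chance alone gives about 1 in 20 such groups. Each value is given against the range of the other mice of the group. The ATV:4D9 mouse of pool 1 accounted for 9 of them. In this mouse, metabolic and biosynthetic genes lay higher, namely Ldha (708 CPM against 457 to 497), Atp5g1 (471 CPM against 352 to 355), Cycs (250.2 CPM against 175 to 183), Idh3a (63.0 CPM against 47.0 to 48.3), Fh1 (51.6 CPM against 37.8 to 39.3) and Srm (145 CPM against 93.0 to 97.4). It lay lower in Acadm (40.1 CPM against 44.4 to 44.6), Ccng2 (18.6 CPM against 29.8 to 32.1) and Sesn1 (15.9 CPM against 27.5 to 28.4). The same mouse had the lowest share of cells in deposited cluster 0 (0.926%) and the highest in cluster 2 (41.8%) of its group.

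The ATV:4D9 mouse of pool 3 stood apart in 2 DAM genes, Axl (137 CPM against 100.5 to 103) and Clec7a (255 CPM against 196 to 205). The ATV:4D9 mouse of pool 2 stood apart in Hsp90aa1 (365 CPM against 479 to 496). Among the mice given 4D9, that of pool 4 stood apart in Chek1 (1.67 CPM against 1.11 to 1.16), Nfkb2 (21.7 CPM against 18.6 to 19.1) and Tmem119 (788 CPM against 718 to 724), and that of pool 2 in Cxcl14 (25.9 CPM against 17.7 to 19.0).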

How the results depend on the processing

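The count of called genes kept to within 1.5 times of the values given (4578 higher, 4508 lower) under another normalization, no filter on low counts, DESeq2, limma-voom, thinned mice, thinned cells, a UMI window, all 20 mice and each pool left out, and moved with UMIs per cell (8035 and 838). Of the 5772 genes called on both scales, 5413 kept their sign. Among the genes named by the rule, the log2 fold changes per cell reversed of Acadm 0.17, Atf4 0.23, Cd74 0.17, Cx3cr1 0.18 and Itgb5 0.074. So did those of Ldhb 0.22, Mrpl9 0.34, Ncoa4 0.0098, Ndufa6 0.22, Pdk1 0.22 and Rel 0.25. Those of Rela 0.26, Rpl21 0.17, Smad4 0.11, Uqcrh 0.14 and mt-Nd4l 0.34 reversed as well. Those of Cd74 0.17, Tmem119 -0.045, mt-Nd4l 0.030 reversed with cells thinned to 3000 UMIs, and App -0.037 with library size only. Medians of the lists, each minus the median of all genes, moved with thinned cells to -0.21 for DAM, -0.32 for MHC class II, 0.48 for nuclear oxidative phosphorylation, 0.21 for sterol genes, -0.15 for lipid export, 0.22 for cytosolic ribosomal proteins, 0.76 for ER chaperones, 0.15 for phagocytic receptors and -0.25 for TGF-beta signalling, and reversed to 0.0351 for CDK inhibitors and 0.14 for mitochondrially encoded genes. With 1000 to 25000 UMIs they were -0.53 (DAM), 0.80 (chemokines), 0.14 (sterol) and 0.59 (proteasome). With no filter they were -0.70 (DAM), -0.0936 (CDK inhibitors), 0.0113 (sterol), -0.25 (TGF-beta) and -1.20e-04 (cytosolic ribosomal proteins, reversed), and with thinned mice -0.0880 (CDK inhibitors). With each pool left out, the ranges were -0.716 to -0.563 (DAM), 0.812 to 0.997 (chemokines), -0.087 to -0.0072 (CDK inhibitors) and 0.048 to 0.148 (phagocytic receptors). The causes were not tested.

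Without the pool as a block, the called genes over all cells were 3660 higher and 3411 lower, and those within clusters 0, 1, 2, 3 and 5 were 62, 191, 1086, 257 and 1385. With the pairing kept and each pool left out, they ranged over 239 to 406, 443 to 877, 1343 to 2229, 457 to 1108 and 1308 to 1805, lowest without pool 4 in clusters 0 to 3 and without pool 3 in cluster 5. Sign flips within pools, the paired form of the exact test, cannot pass 0.05 with 4 pairs and so say nothing of stability; the differences were -27.9, -25.9, 32.9, -21.1, 21.1 and 20.9 percentage points for clusters 0 to 5, -49.0 for clusters 0 and 3, 0.22 for the Shannon index, 5781 median UMIs and 826 median genes per cell. With 1 mouse left out, the Shannon difference ranged over 0.184 to 0.269 and that of the mitochondrial percentage over -0.078 to 0.243, below 0 without the 4D9 mouse of pool 2 or the ATV:4D9 mouse of pool 4. Without any 1 of the 4D9 mice the Shannon index lost its call in the exact permutation (adjusted p = 0.0743), at differences of 0.216 to 0.234. Of the named genes, 53 values lost their call under an alternative and 1 gained it (App per cell). Sums of at least 50 cells were not run for clusters 0, 4 and 5, where fewer than 3 pools would keep both mice. The smallest sum within a cluster held 26 cells, and how depth limits low counts was not tested.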
